A study of Bos taurus with 6 samples.

Results

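The miRNAs described here are the microRNAs (miRNAs) of cattle whose names carry numbers from 4 ranges, miR-2286 to miR-2491, miR-2881 to miR-2904, miR-6516 to miR-6536, and miR-10161 and above. Most of these names were first registered from sequencing of bovine tissue. They were chosen by number alone, and 245 of the 771 known miRNA rows in the table of small RNAs carried such a number. The ranges held 129, 10, 18 and 88 of them in the order given. Of the 245 rows, 105 were typed as mature and 140 as hairpin in the table, and the sources used here do not say what separates these types. The cattle origin of the names could not be checked against sequences, and a few of the names, such as miR-2355 and miR-6516, are also used for miRNAs of other mammals. The prefix bta-, for Bos taurus, is dropped from the names.

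The libraries came from cultured cells of Holstein cattle at passage 4 to 6, grown in F12/DMEM medium with fetal bovine serum and antibiotics. The 3 preadipocyte samples were fat cell precursors, and the 3 adipocyte samples were cells induced with insulin, dexamethasone, rosiglitazone and IBMX. The sources used here give neither the length of induction nor the number of animals or cultures behind the samples. All p-values therefore speak of the spread among these 6 libraries alone, and part of that spread may be technical. Genes of the fat cell were not measured in these small RNA libraries, so the labelled cell types could not be checked against mRNA markers.

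A miRNA is cut from a hairpin precursor, first by Drosha in the nucleus and then by Dicer in the cytoplasm. One strand of the resulting duplex, named 5p or 3p for its arm of the hairpin, is loaded into an Argonaute protein and pairs with mRNAs through its seed. Numbers are assigned to miRNAs in the order in which they are registered, so that names with neighbouring numbers were often registered together. Names that rest on few reads include real but rare or species-specific miRNAs and also, in some cases, pieces of ribosomal RNA (rRNA) or transfer RNA (tRNA). Such pieces enter a small RNA library when longer RNAs are broken to miRNA size.

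The 245 rows were sparsely read. The median row had a mean of 2.0 reads per library, against 27.6 reads for the 526 other known miRNAs. A mean of under 1 read was found for 84 rows, at least 10 reads for 61, at least 100 for 13 and at least 1000 for 3. Reads were present in all 6 libraries for 112 rows. The libraries held 14525284 to 22283754 known and predicted miRNA reads, and levels are given as CPM, counts-per-million of these reads after TMM scaling in edgeR. Rows without a read in a library could still have had up to 0.142 CPM (adipocyte replicate 2) to 0.244 CPM (preadipocyte replicate 2), the limits differing with total reads and TMM factor and covering counting error alone.

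Together the members took 0.183%, 0.21% and 0.163% of the miRNA reads in adipocyte replicates 1, 2 and 3. They took 0.0599%, 0.32% and 0.334% in preadipocyte replicates 1, 2 and 3. The preadipocyte libraries lay on both sides of the adipocyte libraries, with replicate 1 below all others. The means were 0.185% ± 0.0238 in adipocytes and 0.238% ± 0.154 in preadipocytes (SD, n = 3 each), and the exact two-sided permutation p was 0.5, where 0.1 is the smallest p that 3 against 3 libraries can give. The difference of -0.0526 percentage points was -0.141 without preadipocyte replicate 1, -0.0117 without preadipocyte replicate 2 and -0.00462 without preadipocyte replicate 3. One name set this sum. Without miR-10174-3p the adipocyte mean was 0.0669% ± 0.0286 and the preadipocyte mean 0.0615% ± 0.0271 (p = 0.7 by the exact permutation test).

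**Figure D1:**
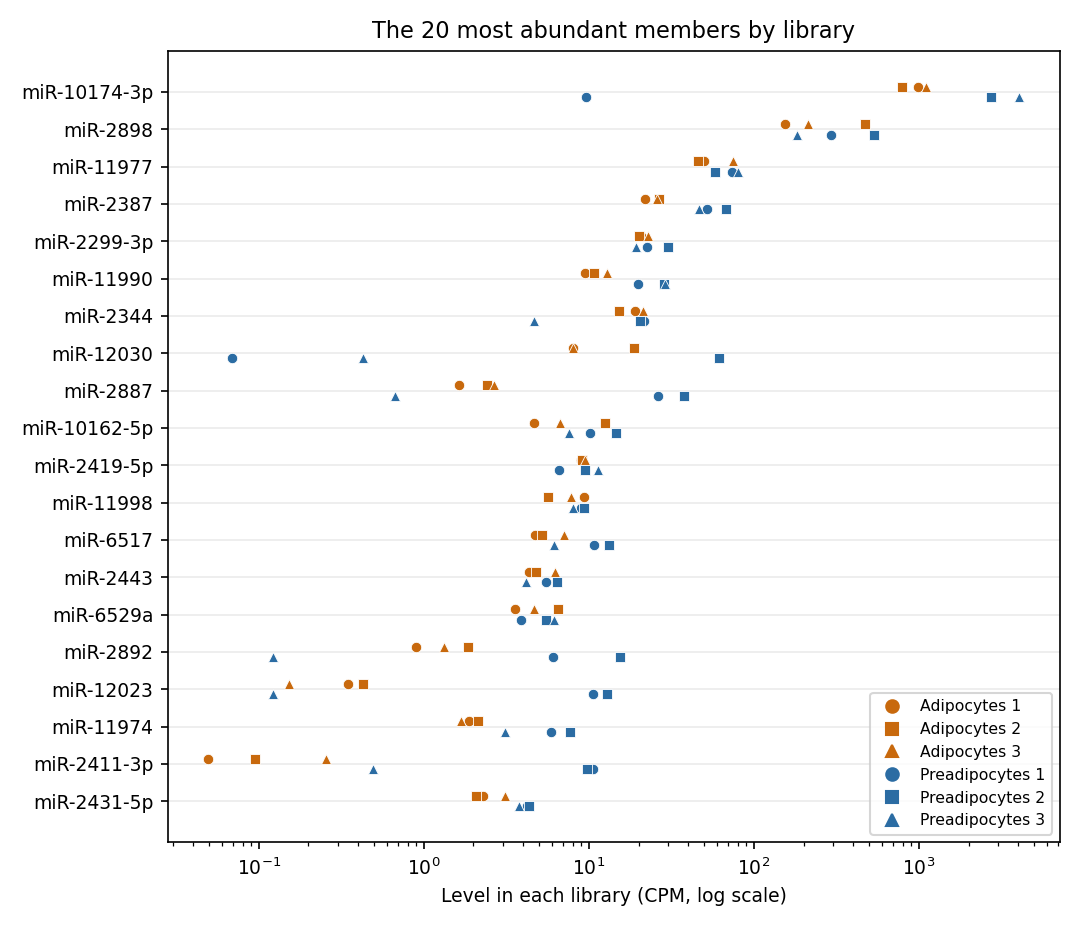
Level of the 20 most abundant members in each library, in CPM on a log scale, with adipocyte libraries in orange and preadipocyte libraries in blue and 1 marker shape per replicate number. Preadipocyte replicate 1 stands at 9.64 CPM for miR-10174-3p, where the other 5 libraries lie between 787 and 4057 CPM.

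The most abundant member, miR-10174-3p, had 19800, 16626 and 21582 reads in adipocyte replicates 1, 2 and 3. It had 141, 33390 and 66407 reads in preadipocyte replicates 1, 2 and 3. A single preadipocyte library was thus far below the rest, and the others lay above every adipocyte library. The opposite arm, miR-10174-5p, was even across the libraries at 13, 16, 13, 13, 15 and 14 reads. In edgeR's quasi-likelihood test miR-10174-3p differed by -1.24 on the log2 scale between adipocytes and preadipocytes (SE 1.44, adjusted p = 0.561 after Benjamini-Hochberg, BH). The difference was -1.83 without preadipocyte replicate 1, -0.56 without preadipocyte replicate 3 and -0.28 with the replicate number as a block, and it missed the threshold in each of these fits.

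Another row of the table was high where miR-10174-3p was low. The row of miR-23b-3p, a miRNA of the miR-23b/27b/24-1 cluster, had 70, 345 and 349 reads in the adipocyte libraries and 404 and 830 in preadipocyte replicates 2 and 3, but 47481 in preadipocyte replicate 1. This pairing of rows was noticed after the values were seen. Of the reads under both names, 98.0% to 99.6% were named miR-10174-3p in 5 libraries and 0.296% in preadipocyte replicate 1. The sum of both rows was 985, 803 and 1121 CPM in adipocytes and 3254, 2752 and 4107 CPM in preadipocytes, so that the groups of the summed level did not overlap. The SD of the log2 level over the 6 libraries was 3.13 for miR-10174-3p and 3.34 for miR-23b-3p alone and 1.01 for their sum. In the same fit with both rows summed, the sum differed by -1.80 with an edgeR BH-adjusted p of 0.0196. In that fit 2 rows with a member passed, the sum and miR-2331-5p, beside 7.99% of all rows. The gene of miR-10174 was not matched in the gene table, and whether the 2 names share sequence was not tested.

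**Figure D2:**
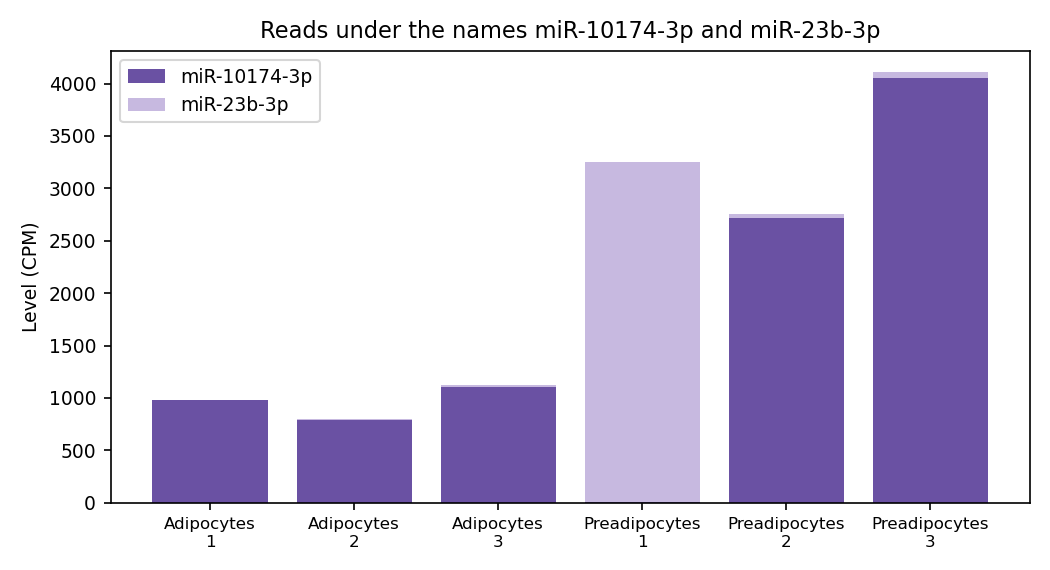
Stacked levels of miR-10174-3p (dark) and miR-23b-3p (light) in each library, in CPM on a linear axis from 0. In preadipocyte replicate 1 nearly the whole bar of 3254 CPM belongs to miR-23b-3p, and in the other 5 libraries nearly the whole bar belongs to miR-10174-3p.

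The next most abundant member was miR-2898, with 3097, 9951 and 4166 reads in the adipocyte libraries and 4312, 6524 and 2970 in the preadipocyte libraries. Its groups overlapped, with means of 279 ± 169 CPM (adipocytes) and 336 ± 179 CPM (preadipocytes, log2 difference -0.27, SE 0.56). The RefSeq table placed its gene in no other gene. After it came miR-11977, also outside other genes, with 1002, 971 and 1454 reads in adipocytes and 1079, 717 and 1311 in preadipocytes (-0.32, SE 0.32). Neither row separated the cell types, and the sign of both estimates turned with library totals alone.

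Members that lie in genes followed at lower levels. The gene of miR-2387 overlaps GTF2IRD1, a transcription regulator, and its row had 444, 563 and 508 reads in adipocytes and 758, 827 and 758 in preadipocytes. In CPM these were 24.9 ± 2.51 and 55.2 ± 10.9, with no overlap between the groups (log2 difference -1.15, SE 0.30, edgeR BH-adjusted p = 0.0637). Per total miRNA reads, without TMM factors, the groups overlapped, and with library totals alone the difference was -0.53 (edgeR BH-adjusted p = 0.30). For miR-11990, in the RNA-binding protein gene RBMS3, the reads were 190, 228 and 252 in adipocytes and 291, 349 and 473 in preadipocytes. In CPM the groups of miR-11990 did not overlap, with 11.03 ± 1.75 in the first and 25.7 ± 5.07 in the second (-1.22, SE 0.31, BH-adjusted p = 0.0637 in edgeR). The row of miR-2299-3p, in the glycosyltransferase gene B3GLCT, was the most even of the abundant members, with 416, 428 and 448 reads in adipocytes and 328, 370 and 317 in preadipocytes (-0.17, SE 0.30).

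Single libraries set the sign of the estimate for the abundant members miR-2344 and miR-12030. The row of miR-2344, in the tubulin cofactor gene TBCD, had 386, 322 and 419 reads in adipocytes and 314, 250 and 76 in preadipocytes, and its estimate of 0.26 (SE 0.58) became -0.17 without preadipocyte replicate 3. The row of miR-12030 had 162, 395 and 156 reads in adipocytes and 1, 751 and 7 in preadipocytes. Its estimate of -0.83 (SE 1.85) became 5.44 without preadipocyte replicate 2, with an edgeR BH-adjusted p of 0.0649. For miR-10162-5p, in the AP-1 repressor gene JDP2, the reads were 94, 265 and 131 in adipocytes and 149, 179 and 124 in preadipocytes (-0.43, SE 0.46). Its estimate stayed negative with each library left out in turn, from -0.93 to -0.17.

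Across the whole miRNA table, 26 of 414 tested rows passed an edgeR BH-adjusted p of 0.05 (6.28%), and 0 of them were members. Of the 26 rows, 16 were higher and 10 lower in adipocytes, a split that was 15 and 34 with upper-quartile factors, where the median of all rows was -0.31, and 88 and 9 with library totals alone. The low-count filter left 57 of the 245 members for this test. Of these, 32 met its read minimum in all 6 libraries, 3 in all preadipocyte and in no adipocyte library, and 3 in all adipocyte and in no preadipocyte library. The first 3 were miR-6525, miR-2331-3p and miR-2431-3p and the last 3 miR-10179-5p, miR-10172-5p and miR-2477, and these 6 rows could pass the filter only with a difference between the groups. Without adjustment, 22 members had p below 0.05, of which 19 were lower and 3 higher in adipocytes. Of all rows tested 34.1% had such a p, 16.2% lower and 17.9% higher. The 19 include miR-6525, miR-2331-3p and miR-2431-3p and the 3 include miR-10179-5p, rows whose direction followed from the filter. The smallest adjusted p of a member was 0.0539, that of miR-2331-5p and miR-6525. DESeq2 called 15 of the 94 members that had an adjusted p, all lower in adipocytes. It called 22.0% of all its rows with an adjusted p (10.8% lower, 11.2% higher). With edgeR, 8 of 57 members passed under upper-quartile factors (11.8% of all rows) and 10 of 57 with known miRNAs alone (16.2%). With a minimum of 10 CPM, 2 of 9 members passed (19.8%), and with overlapping miRNA genes summed, 2 of 58 (6.53%). The latter include miR-2312 summed with miR-2284j, which is not a member, and miR-2312 alone did not pass the filter. No member passed with the replicate block (0.242% of all rows), without the low-count filter (2.16%) or when libraries were scaled by rRNA reads (1.21%). Without preadipocyte replicate 3, 24 of 71 tested members passed (31.8% of all rows), and 14 of these 24 were among the 15 called by DESeq2. Without adipocyte replicates 1, 2 and 3 and preadipocyte replicates 1 and 2 in turn, 0 members passed, beside 0.214%, 0.215%, 1.73%, 0.911% and 0.221% of all rows.

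Estimates of the tested members were negative for 45 and positive for 12, with a median log2 difference of -0.86, beside -0.02 over all rows tested. Scaled by rRNA reads they were negative for 27 and positive for 30, with a median of 0.11 beside 0.77 over all rows. This is a description of the rows that passed the filter, 3 of them through the preadipocyte and 3 through the adipocyte libraries alone. With library totals alone the members' median was -0.28 beside 0.62 over all rows, 34 estimates were negative, and the 3 members that passed (23.4% of all rows, 21.3% higher and 2.17% lower) were all higher in adipocytes. The sign of a member's difference is therefore read here relative to the other miRNAs. The 3 members that passed with library totals alone include miR-2483-3p. It met the read minimum in 3 adipocyte libraries and 1 preadipocyte library. The TMM-scaled levels of adipocytes and preadipocytes did not overlap for 27 tested members, 20 of them lower and 7 higher in adipocytes. Over all rows tested this share was 44.7%, with 20.5% lower and 24.2% higher. Per total miRNA reads, without factors, 21 members did not overlap, 8 lower and 13 higher, beside 46.6% of all rows (7.97% lower and 38.6% higher).

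**Figure D3:**
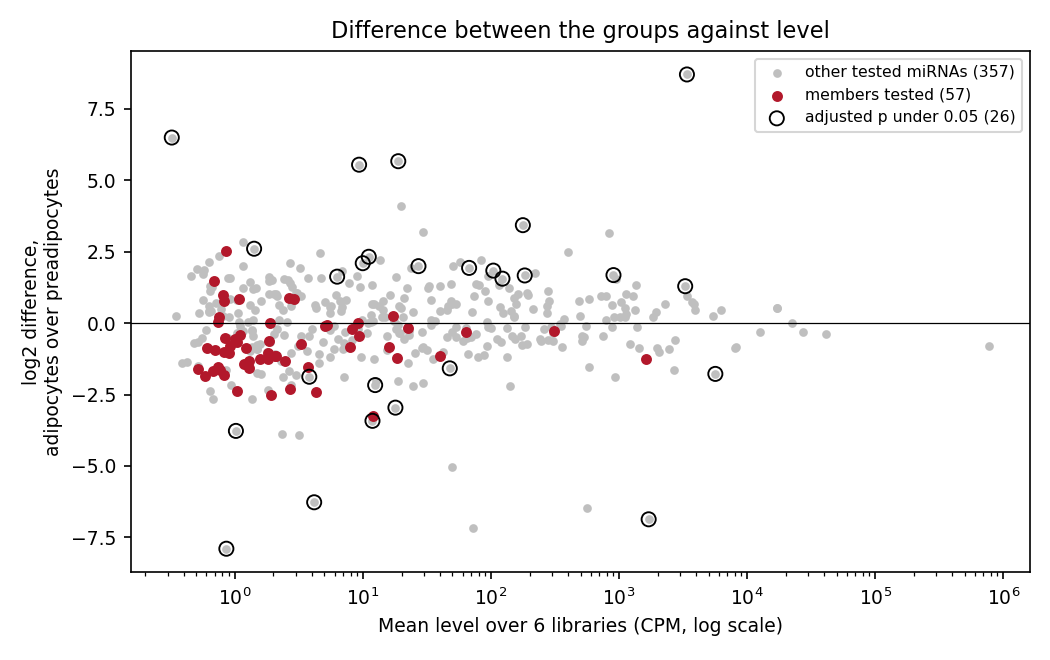
The log2 difference of adipocytes over preadipocytes against the mean level in CPM (log scale) for the 414 tested miRNAs, with the 57 tested members in red and the 26 rows past an adjusted p of 0.05 circled. No member is among the circled rows, and 45 of the 57 members lie below 0.

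The members with the smallest p were lower in adipocytes and had few reads. One was miR-2331-5p, whose gene lies in the DNA repair gene RAD51D. It had 34, 27 and 24 reads in adipocytes and 57, 38 and 60 in preadipocytes, which gave 1.40 ± 0.251 and 3.55 ± 0.412 CPM (log2 difference -1.34, SE 0.31, edgeR BH-adjusted p = 0.0539). Every adipocyte library lay below every preadipocyte library, also per total miRNA reads without TMM factors. The 3p arm had 4, 4 and 7 reads in adipocytes and 13, 11 and 16 in preadipocytes (-1.86, SE 0.50, BH-adjusted p = 0.0637 by edgeR). Since it met the read minimum in the preadipocyte libraries alone, its difference is a description. The 5p arm passed with DESeq2 (-1.31, adjusted p = 0.00839) and without preadipocyte replicate 3 (-1.32, edgeR BH-adjusted p = 0.0257).

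The row of miR-6525, in the mitochondrial protein gene FASTK, had 8, 7 and 7 reads in adipocytes and 20, 17 and 18 in preadipocytes. It too met the read minimum in the preadipocyte libraries alone, so that its separation is a description, the adipocyte mean being 0.362 ± 0.0328 CPM and the preadipocyte mean 1.28 ± 0.16 CPM (-1.80, SE 0.42, BH-adjusted p = 0.0539 in edgeR). The row of miR-11974, in SKI, a repressor of TGF-beta signalling, had 38, 45 and 33 reads in adipocytes and 86, 94 and 51 in preadipocytes (-1.54, SE 0.40, edgeR BH-adjusted p = 0.0637). Its groups lay apart on the TMM scale and overlapped per total reads. Preadipocyte replicate 3 was the lowest of its group, and without it the difference was -1.84 (edgeR BH-adjusted p = 0.0115).

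None of the 4 number ranges differed in its share of miRNA reads beyond the spread between libraries. The exact permutation p was 0.8 for miR-2286 to miR-2491, 0.7 for miR-2881 to miR-2904, 0.3 for miR-6516 to miR-6536 and 0.6 for miR-10161 and above. The range of miR-6516 to miR-6536 took the smallest share, 0.00224% ± 2.43e-04 in the adipocyte and 0.00195% ± 2.67e-04 in the preadipocyte libraries. Its most abundant rows were miR-6517, with 95, 110 and 139 reads in adipocytes and 158, 163 and 100 in preadipocytes, and miR-6529a, with 72, 137 and 91 and 57, 68 and 101 reads. The groups of both overlapped (-0.82, SE 0.37, and -0.09, SE 0.34). The gene of miR-6529a, in the kinase gene GSK3B, overlaps that of miR-6529b, whose row held 2 reads in preadipocyte replicate 1 and 0 elsewhere. The row of miR-6524, in PDCD4, a translation inhibitor, lay higher in every adipocyte library, with 83, 66 and 79 reads against 37, 11 and 46, but did not pass the test (0.85, SE 0.46, edgeR BH-adjusted p = 0.221).

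Both arms were listed for 25 precursors and passed the filter for 6, and in each of these 6 both arms had estimates of the same sign, where miR-2331-3p and miR-2431-3p had passed it through the preadipocyte libraries alone. Besides miR-2331 and miR-10174 these were miR-2320, miR-2431 and miR-2448, with negative estimates, and miR-2483, in the teneurin gene TENM1 on the X chromosome, with positive ones. Of all tested members 45 of 57 were negative, so that like signs of 2 arms say little. With library totals alone the arms differed in sign for miR-10174 (5p 0.12, 3p -0.58) and for miR-2320 (5p -0.55, 3p 0.27). The 5p arm of miR-2483, described after its values were seen, had 61, 66 and 80 reads in adipocytes and 25, 19 and 37 in preadipocytes, and its 3p arm 24, 22 and 38 and 10, 10 and 13. Every adipocyte library lay above every preadipocyte library for both arms (0.89, SE 0.32, and 0.86, SE 0.43, edgeR BH-adjusted p = 0.106 and 0.192). With library totals alone both passed, at 1.51 and 1.44 (edgeR BH-adjusted p = 0.0224 and 0.0438). The 3p arm met the read minimum in 3 adipocyte libraries and in 1 preadipocyte library, so that its difference is a description. The 5p arm of miR-2431 differed by -0.72 (SE 0.29) and its 3p arm by -2.38 (SE 0.66, edgeR BH-adjusted p = 0.0645).

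The members' genes were placed with a RefSeq table of the assembly ARS-UCD2.0. It served for names and neighbours only, since the sources used here do not state the build behind the reads. Of the 245 rows, 237 matched 221 miRNA genes, and 176 of these genes (79.6%) overlapped a protein-coding gene on either strand. Among the other known miRNAs this held for 329 of 558 genes (59.0%). Among the overlapped genes was one of fat synthesis. The gene of miR-10179 overlaps FASN, the fatty acid synthase of lipogenic cells, and miR-10179-5p, singled out after its values and place were seen, had 18, 40 and 30 reads in adipocytes and 4, 6 and 0 in preadipocytes. The means were 1.44 ± 0.507 and 0.254 ± 0.245 CPM. The row met the read minimum in the adipocyte libraries alone and was picked for these values, so that its separation supports nothing. The log2 difference was 2.53 (SE 0.95, edgeR BH-adjusted p = 0.114), which did not pass, and was 1.90 without preadipocyte replicate 3 (edgeR BH-adjusted p = 0.0565).

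Other members lie beside abundant miRNAs and were themselves rare. The gene of miR-2443 is within 10000 bases of MIRLET7A-3 and MIRLET7B of the let-7 family, and its row had 88, 101 and 122 reads in adipocytes and 81, 79 and 68 in preadipocytes (-0.07, SE 0.30). The gene of miR-2475 neighbours MIR23B, MIR27B and MIR24-1, and its row had 1, 6 and 4 reads in adipocytes and 3, 1 and 7 in preadipocytes. A different kind of neighbour was found for miR-2887, which has 2 genes in the table. MIR2887-2 lies in a pseudogene within 10000 bases of RN18S1, the gene of 18S ribosomal RNA, and of LOC112444653, another structural or small RNA gene. It was the only one of the 221 matched genes near RN18S1. Genes of tRNA lay within 10000 bases of the genes of miR-2290, miR-2397 and miR-2431. Whether reads of these members came from such neighbours was not tested.

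Reads of structural RNA differed between the preadipocyte libraries. The 10 rRNA rows summed to 1.03%, 0.995% and 0.988% of the miRNA reads in adipocyte replicates 1, 2 and 3 and to 1.98%, 2.22% and 0.548% in preadipocyte replicates 1, 2 and 3 (p = 0.4 by the exact permutation test). The tRNA rows summed to 0.1%, 0.123% and 0.183% in adipocytes and to 0.296%, 0.398% and 0.0981% in preadipocytes (p = 0.4 by the same exact test). The widest spread was that of the eukaryotic large subunit row, which covers 28S rRNA, with 3550, 3186 and 5791 reads in adipocytes and 39104, 31915 and 3964 in preadipocytes. The reads of exon, intron, intergenic and repeat rows took the same order, at 24.7% and 25.4% of the miRNA reads in preadipocyte replicates 1 and 2 and 6.13% to 15.8% in the other 4 libraries. Not every row took this order. The small subunit rRNA row was at 0.506% in preadipocyte replicate 2, below adipocyte replicates 1 and 2 (0.66% and 0.693%), though it took the order in CPM. Y RNA was highest in adipocyte replicate 3 (0.61%). Preadipocyte replicates 1 and 2 thus carried more reads of several, but not all, kinds of other RNA at once. Likeness to 1 of the rows that took this order therefore cannot be told apart from likeness to the others.

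The members were compared with these rows by their spread over the 6 libraries. A fragment of an RNA would be expected to keep its ratio to that RNA from library to library. A row was counted as following rRNA when the SD of its log2 ratio to the summed rRNA rows was smaller than the SD of its log2 level, with 0.5 reads added to each count. This held for 27 of the 61 members with a mean of at least 10 reads (44.3%) and for 45 of the 320 other known miRNAs at that minimum (14.1%). For the tRNA rows it held for 23 members (37.7%) and 37 others (11.6%), and for the exon, intron, intergenic and repeat rows for 29 members (47.5%) and 41 others (12.8%). At a minimum of 100 reads the rRNA count was 3 of 13 members (23.1%) and 27 of 214 others (12.6%), and the tRNA count was 3 and 23 (10.7%). These counts are a description and no test, and the members have fewer reads than the other miRNAs.

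**Figure D4:**
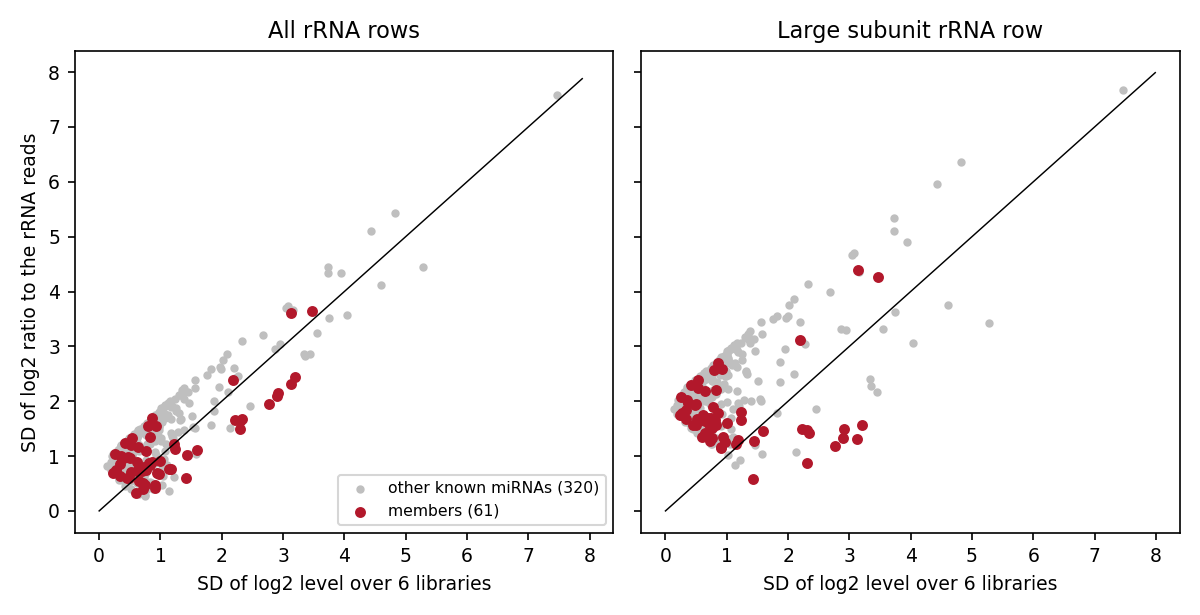
SD of the log2 ratio to all rRNA reads (left) and to the large subunit row (right) against the SD of the log2 level, both over the 6 libraries, for 61 members (red) and 320 other known miRNAs (grey) with a mean of at least 10 reads. Points below the diagonal keep a steadier ratio to rRNA than level, which holds for 27 members on the left and 12 on the right.

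For the large subunit row alone, 12 of the 61 members (19.7%) and 16 of the 320 others (5.0%) had the smaller spread as a ratio. These 12 were miR-2887, miR-2892, miR-2890, miR-2899, miR-12023, miR-2411-3p, miR-2332, miR-11975, miR-11980, miR-11982, miR-2399-5p and miR-2431-3p. This reference row was chosen after the values were seen. In 27 members (44.3%) and 37 others (11.6%) preadipocyte replicates 1 and 2 both lay above all other libraries, as in the large subunit row, and in 9 members (14.8%) and 5 others (1.56%) both were at least 2-fold above.

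The row with the most reads among these 12 was miR-2887, whose second gene lies beside the 18S rRNA gene. The 18S rRNA belongs to the small subunit row. Preadipocyte replicates 1 and 2 held 50.0% of the summed CPM of the small subunit row. For miR-2887 this was 89.7% and for the large subunit row 85.9%. The reads of miR-2887 were 33, 51 and 52 in adipocytes and 386, 463 and 11 in preadipocytes. Its reads per 1000 large subunit reads were 9.30, 16.0 and 8.98 in adipocytes and 9.87, 14.5 and 2.77 in preadipocytes. The level therefore ranged widely, with an SD of 2.30 on the log2 scale, and the ratio less so, with an SD of 0.88. Ratios of miR-2887 to the small subunit, 5.8S and tRNA rows also had a smaller SD than its level. The source of its reads was not tested. Its preadipocyte level was 26.4 and 37.7 CPM in replicates 1 and 2 and 0.672 CPM in replicate 3, below every adipocyte library (1.64 to 2.66 CPM). The log2 difference between the groups was -3.27 (SE 1.20, edgeR BH-adjusted p = 0.11), and -3.85 without preadipocyte replicate 3 (edgeR BH-adjusted p = 0.00458).

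Other names of the range miR-2881 to miR-2904 showed the same order of libraries. The row of miR-2892 had 18, 39 and 26 reads in adipocytes and 89, 189 and 2 in preadipocytes (-2.40, SE 1.24, edgeR BH-adjusted p = 0.202). Without preadipocyte replicate 3 it passed, at -3.0 (edgeR BH-adjusted p = 0.018), and without preadipocyte replicate 2 the difference was -1.16 (edgeR BH-adjusted p = 0.543). The row of miR-2899 had 3, 2 and 9 reads in adipocytes and 102, 31 and 0 in preadipocytes, and miR-2890 had 2, 1 and 2 and 58, 21 and 0. These rows were high in the same 2 preadipocyte libraries and at or near 0 in the third. By contrast, miR-2898, of the same range, had no such order, and its spread was larger as a ratio to the large subunit row (SD 1.70) than as a level (SD 0.74). As a ratio to the exon, intron, intergenic and repeat rows its SD was 0.68, smaller than that of its level. The row of miR-2904, with 16, 16 and 13 reads in adipocytes and 14, 12 and 4 in preadipocytes, stood closest to the small subunit row, with an SD of 0.41 as a ratio and 0.70 as a level.

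Members with names in other ranges shared the order. The row of miR-12023, in the gene GPR137, had 7, 9 and 3 reads in adipocytes and 155, 159 and 2 in preadipocytes. The row of miR-2411-3p, in UBAP2L, had 1, 2 and 5 reads in adipocytes and 155, 119 and 8 in preadipocytes, and that of miR-2332, in UTP6, a gene of ribosomal RNA processing, had 2, 0 and 3 and 73, 85 and 9. In these rows preadipocyte replicates 1 and 2 held 93.7% to 95.8% of the summed CPM, beside 85.9% for the large subunit row. Their ratios to that row were not even between the groups. Reads of miR-2411-3p per 1000 large subunit reads were 0.282, 0.628 and 0.863 in adipocytes and 3.96, 3.73 and 2.02 in preadipocytes. For miR-2332 they were 0.563, 0 and 0.518 and then 1.87, 2.66 and 2.27, all preadipocyte libraries above all adipocyte libraries as for miR-2411-3p. For miR-12023 they were 1.97, 2.82 and 0.518 in adipocytes and 3.96, 4.98 and 0.505 in preadipocytes, with overlap. The row of miR-11975 had 20, 10 and 4 reads in adipocytes and 71, 60 and 1 in preadipocytes. The row of miR-11982, in LYST, had 16, 15 and 23 reads in adipocytes and 66, 97 and 18 in preadipocytes, and its ratio to the 5.8S rRNA row was steady, with an SD of 0.39 against 1.42 for its level.

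The 9 rows with both preadipocyte libraries at least 2-fold above the rest were all among the 24 members that passed without preadipocyte replicate 3, a fit in which preadipocytes are these 2 libraries alone, so that this overlap follows from the choice of rows. With all libraries the low-count filter of edgeR left 4 of the 9 for testing, miR-2887, miR-2892, miR-11975 and miR-11982. Of these, DESeq2 called miR-2887 and miR-11982 and did not call miR-2892 and miR-11975. DESeq2, run without that filter, also called miR-2411-3p, miR-2332 and miR-12023 with all libraries (adjusted p = 6.8e-05, 2.1e-04 and 0.0033). Its calls thus include rows that were high in preadipocyte replicates 1 and 2 alone. The part of rRNA or of other RNA read in these libraries in these differences was not tested.

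**Figure D5:**
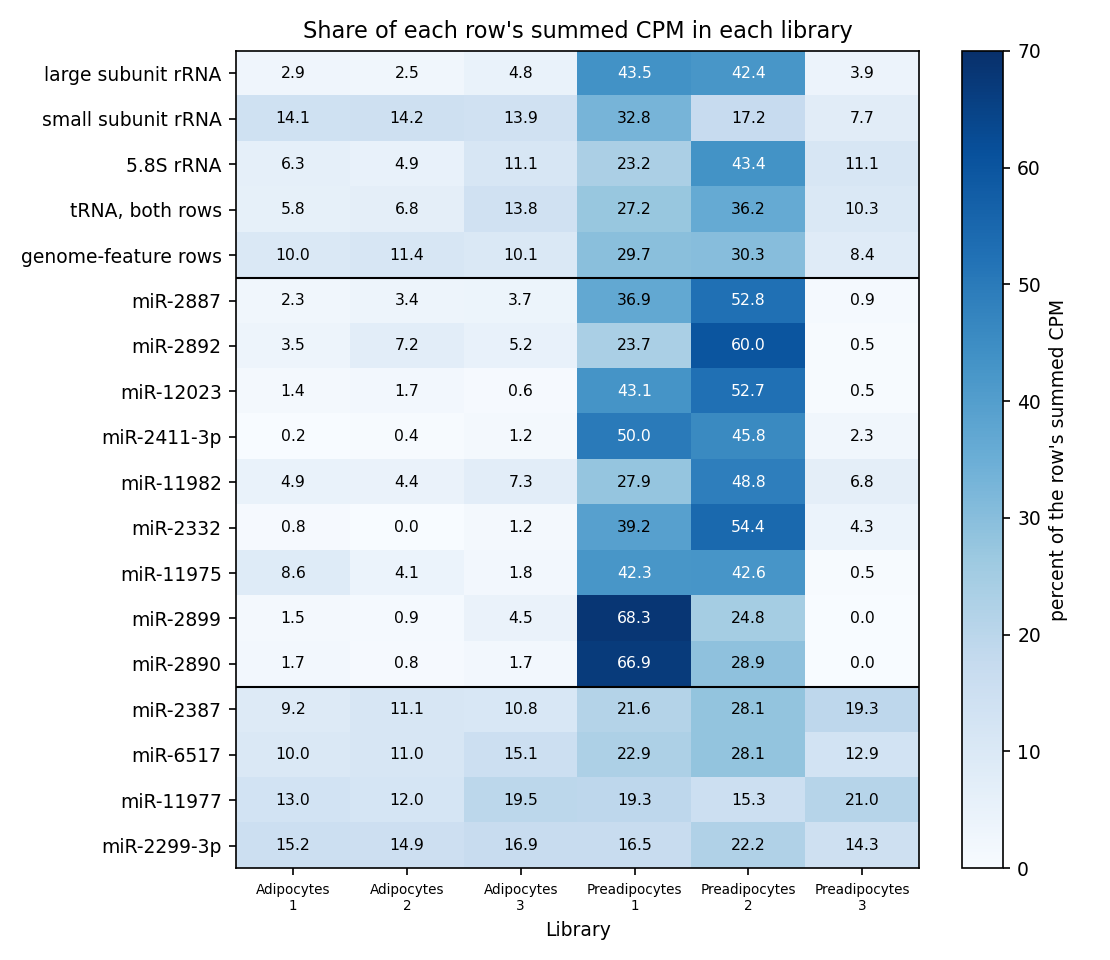
Share of each row's summed CPM that falls in each library, in percent, for structural RNA and genome-feature rows (top block), the 9 members with preadipocyte replicates 1 and 2 at least 2-fold above the rest (middle block) and 4 abundant members for comparison (bottom block). The large subunit row and the 9 members have 76.7% to 95.8% of their CPM in preadipocyte replicates 1 and 2, and miR-11977 has 34.6%.

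Among the members with at least 100 reads, the steadiest ratios to rRNA were those of miR-6517, with an SD of 0.33 beside 0.59 for its level, and miR-2387, with 0.54 beside 0.65. Both were also the steadiest as ratios to tRNA, at 0.48 and 0.62. The rows of miR-2299-3p and miR-10162-5p came next for rRNA, but their levels were steadier than their ratios (0.23 against 0.70 and 0.61 against 0.73). The same held for miR-11990 against tRNA, at 0.71 for the level and 0.76 for the ratio. Of the 3 members with at least 1000 reads, miR-10174-3p, miR-2898 and miR-11977 each had a larger SD as a ratio to rRNA (3.61, 0.80 and 0.85) than as a level (3.13, 0.74 and 0.34). Steady ratios to rRNA were not particular to members. Among the other known miRNAs, the SD was 0.29 for miR-92b beside 0.75 for its level, and 0.31 for miR-155 beside 0.65. At a minimum of 100 reads, 27 of 214 others followed rRNA.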

How the data were processed

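Small RNA of 18 to 30 nt was sequenced in 3 adipocyte and 3 preadipocyte samples, per the labels' protocols. The submitters' processing notes name Bowtie2, and the sources used here do not give the genome build, the miRNA release or the rule for multiply matching reads. The authors' deposited table gives whole-number read counts, used as deposited, and TPM values, which were found to be the count over 1 constant per library (0 written as 0.001) and were not used further. That constant implies library totals of which 81.1% to 86.4% are in the table.

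Known and predicted miRNA rows (879) were tested together with the two-sided quasi-likelihood test of edgeR 4.0.16 (R 4.3.3), using filterByExpr, TMM factors, a model of group alone, BH adjustment over all rows tested and a threshold of 0.05. DESeq2 1.42.0 was an alternative, with an adjusted p for 528 rows. Shares were compared with exact permutation tests over libraries. The fit was tested on simulated data. Tables and plots were made with Python 3.11.15, pandas 2.3.3, numpy 2.4.6 and matplotlib 3.10.9.

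The members, lists and tests were chosen with earlier results of these data known. Members were named when past the threshold, among the 10 most abundant, the 3 most abundant of a range, the 6 with the smallest p, or the 4 with at least 100 reads and the steadiest ratio to rRNA or to tRNA. Any further name, such as the arm pairs, the members beside other genes and the 9 rows high in preadipocyte replicates 1 and 2, was picked with its values in view or belongs to a counted set. Mature sequences were not used here.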

Additional observations from a re-analysis of the deposited data

How the results depend on the processing

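The count of miRNAs past the threshold (26 of 414) and that of members (0) moved with the setting. They were 49 and 8 with upper-quartile factors, 97 and 3 with library totals alone, 43 and 2 with a minimum of 10 CPM, 59 and 10 with known miRNAs alone, 116 and 15 with DESeq2, and 5 and 0 when libraries were scaled by rRNA reads, where the median of all rows was 0.77. Leaving out 1 library gave 1 to 148 miRNAs and 0 to 24 members, the highest of both without preadipocyte replicate 3. Members numbered 2 with overlapping miRNA genes summed (miR-2331-5p, and miR-2312 summed with miR-2284j) and 2 with miR-10174-3p and miR-23b-3p summed, both settings chosen after seeing the data. The causes were not tested. Summing rows with identical or nested mature sequences was not run.

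With the replicate block, 1 miRNA and 0 members passed. Same-numbered libraries correlated by 0.02, -0.26 and -0.01 in their deviations from group means, and differently numbered ones by -0.20 to 0.21. The values thus showed no sign of a pairing by number. With 3 libraries per group they cannot exclude that same-numbered libraries share an animal or culture.

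The members' difference in read share was 0.00545 percentage points without miR-10174-3p. Members following rRNA numbered 3 at a minimum of 100 reads and 12 against the large subunit row, and those following tRNA numbered 3 at 100 reads. The members named by the rule above, 18 in number, all had estimates, and 100 of 108 values with 1 library left out kept their sign. Signs turned with library totals alone for miR-2898 (0.38), miR-11977 (0.28), miR-2299-3p (0.44), miR-10162-5p (0.21) and miR-6529a (0.57). Scaled by rRNA reads they turned for the same 5 (0.92, 0.36, 0.76, 0.62 and 0.64), miR-12030 (0.91) and miR-6517 (0.23). They also turned for miR-2344 with upper-quartile factors (-0.031) and for miR-12030 with the replicate block (3.13). With 1 library left out, the range was -0.88 to 0.22 for miR-2898, -0.43 to 0.0093 for miR-2299-3p, -0.17 to 0.57 for miR-2344, -1.45 to 5.44 for miR-12030 and -0.34 to 0.082 for miR-6529a. It was -1.83 to -0.56 for miR-10174-3p, -3.0 to -1.16 for miR-2892, -0.93 to -0.17 for miR-10162-5p and -0.76 to -0.19 for miR-11977. Members with under 100 reads limit what depth can show.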
